A study of Rattus norvegicus with 24 samples.

Results

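The effect of coronary ligation on gene expression in the rat left ventricle was compared between diets, as the interaction of surgery and diet. The interaction of a gene is its ligation effect on saturated fat, ligated fat rats minus sham fat rats, minus its ligation effect on chow, ligated chow rats minus sham chow rats, all on the log2 scale. A value above 0 means that ligated minus sham was larger, or less negative, on saturated fat than on chow. All 24 arrays of the series enter this contrast, 1 array per animal, in 4 groups of 6 taken from the sample names. Rats of the ligated fat group had the left coronary artery tied and ate the saturated fat chow, and rats of the sham fat group had the operation without the tie and the same diet. Rats of the ligated chow group had the artery tied and ate normal chow, and rats of the sham chow group had a sham operation and normal chow. All were male Wistar rats of 300 to 350 g. Fat supplied 60% of the calories of the fat chow, with palmitic acid at 25%, stearic acid at 33% and oleic acid at 33% of it. The light cycle was reversed, and procedures were done 3 to 6 hours after lights-off. The sources used here do not give the time on the diets.

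The heart draws most of its energy from fatty acids, and a nuclear receptor activated by fatty acids, PPAR-alpha, raises the genes that take them up and oxidise them. After coronary ligation the surviving ventricle is stretched, cardiomyocytes raise natriuretic peptides and other fetal genes, fibroblasts lay down matrix, and macrophages enter the wall. The heart also keeps its own circadian clock, in which the activators BMAL1 and CLOCK drive the Per and Rev-erb repressors and the transcription factors DBP and TEF. A diet could in principle leave the response to ligation as it is, shift it for whole pathways, or shift it for a few genes, and the interaction is the contrast that addresses this.

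Each array detected between 8884 and 10475 of 22517 probes, arrays of a group correlated at 0.969 to 0.992, and the number of arrays limits the precision. The tissue label was checked against 16 cardiomyocyte markers, of which 15 were tested, and their mean log2 intensity lay between 14.51 and 14.64 on every array. The raw signal of 12 of the 15 came close to the top of the scale, so the narrow range is no measure of cardiomyocyte content. In bulk tissue, fewer cells of a type and less RNA per cell cannot be told apart. Background signal, the median over probes with a detection p above 0.5, split the arrays into a high set at 132.2 to 148.5 and a low set at 77.2 to 87.5. The files give no chip or date, so the sets were read from the values alone. The high set held 5 ligated fat, 3 sham fat, 2 ligated chow and 2 sham chow animals, and 2159 genes (20.8%) differed between the sets at limma's adjusted p under 0.05. Interaction values were therefore also fitted with the set as a block. The low set held 1 ligated fat animal, so every interaction given within the low-background arrays rests on that animal.

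No gene passed the test for an interaction of ligation and diet. Of 10391 genes, 0 (0%) reached a Benjamini-Hochberg adjusted p under 0.05 in limma, and the smallest adjusted p was 0.673. With the background set as a block the count was also 0, with a smallest adjusted p of 0.825 and 580 genes (5.58%) at an unadjusted p under 0.05. At an unadjusted p under 0.05 there were 563 genes (5.42%), 218 above 0 (2.10%) and 345 below 0 (3.32%). That split depended on the scaling between arrays, since median scaling in place of quantile normalization gave 209 genes, 165 above 0 and 44 below 0. The median interaction over all genes was -0.01 and its median standard error 0.19.

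For 9498 genes (91.4%) the 95% confidence interval of the interaction lay within 1 log2 unit on either side of 0, and for 4180 genes (40.2%) it lay within 0.5. The other 893 genes had intervals that reached beyond 1 log2 unit, so a difference of that size between the diets lies within their intervals. A gene of median standard error would have needed an interaction of about 1.11 to be the first to pass. Interactions above 1 were estimated for 24 genes and below -1 for 7 genes, none of which passed.

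**Figure D1:**
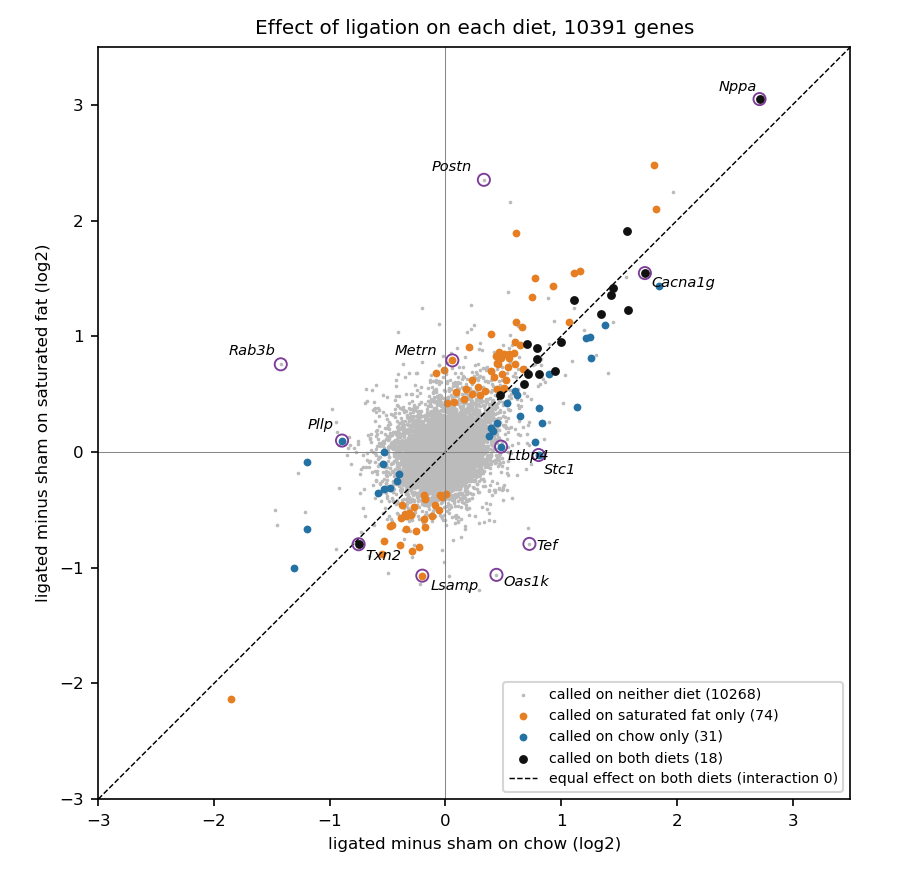
Ligated minus sham on saturated fat (vertical axis, log2) against ligated minus sham on chow (horizontal axis, log2) for each of 10391 genes. Points are coloured by the diet on which the ligation effect had an adjusted p under 0.05, circles mark 12 genes named in the text, and the dashed line marks an interaction of 0. The 18 genes called on both diets lie near the line, which the choice by call favours.

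The ligation effects themselves were present on both diets. In limma, 92 genes (0.885%) passed for ligated against sham on saturated fat, 63 higher and 29 lower, and 49 genes (0.472%) on chow, 37 higher and 12 lower. The 18 genes called on both diets had interactions between -0.36 and 0.34, and the interval included 0 for each of them. A call on both diets from the same animals favours effects of like sign and size, so nothing is read from these small interactions. Atrial natriuretic peptide, Nppa, which the stretched ventricle makes, had log2 intensities of 12.49, 14.30 and 15.27 (lowest, median and highest of 6) in ligated fat rats, against 10.88, 11.17 and 11.67 in sham fat rats. On chow it had 12.14, 14.67 and 14.89 in ligated rats, against 10.59, 11.23 and 12.78 in sham rats. Every ligated fat rat was above every sham fat rat, while the groups on chow overlapped. Over all genes, ligated and sham rats did not overlap for 150 (1.44%) on saturated fat and 103 (0.991%) on chow. Nppa rose by 3.05 on saturated fat and by 2.71 on chow (adjusted p = 0.000984 and 0.0029), and the interaction was 0.34 with an interval from -0.93 to 1.60. The raw signal of Nppa came close to the top of the scale on 2 arrays.

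Other genes called on both diets had intervals of different widths. Cacna1g, a T-type calcium channel subunit of the fetal ventricle, had 7.99, 8.62 and 8.90 in ligated fat rats, against 6.44, 7.05 and 7.66 in sham fat rats. On chow Cacna1g stood at 7.57, 8.70 and 9.24 in ligated rats, against 6.31, 6.96 and 7.31 in sham rats. Neither pair of groups overlapped, and the interaction was -0.18 (95% interval -0.91 to 0.55). Txn2, the mitochondrial thioredoxin, fell with ligation on both diets. Its values were 9.75, 10.09 and 10.29 in ligated fat rats, against 10.77, 10.87 and 10.95 in sham fat rats. On chow they were 9.50, 9.99 and 10.14 in ligated rats, against 10.42, 10.71 and 10.83 in sham rats. Again neither pair overlapped, and the interval of the Txn2 interaction, -0.38 to 0.29 around an estimate of -0.05, was among the tighter ones. B-type natriuretic peptide, Nppb, rose by 0.90 on saturated fat and by 0.79 on chow, with an interaction of 0.11 (interval -0.41 to 0.63).

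A call on 1 diet alone is no test of a difference between diets. Of 74 genes called on saturated fat but not on chow, 71 had a ligation effect of the same sign on chow, and the interval of the interaction included 0 for 54. Of 31 genes called on chow but not on saturated fat, 28 had the same sign on saturated fat, and the interval included 0 for 21. Over all 10391 genes, the signs agreed for 5864 and the interval included 0 for 9828. The choice by call fixes the direction of the interaction in these sets, because the same animals enter the choice and the contrast. Nothing is therefore read from the size of these interactions or from the interval counts.

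A set of 24 genes with official symbols was followed in detail, the 12 with the smallest interaction p above 0 and the 12 with the smallest below 0. Their adjusted p-values in limma ran from 0.673 to 0.878, so the values describe these animals and are not calls. In 21 of the 24 the ligation effect had opposite signs on the 2 diets, which holds for 43.6% of all genes. A small p of the difference between the 2 effects favours opposite signs, so the choice of the genes sets this share and nothing is read from it.

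Above 0, the smallest p (unadjusted 0.00013, adjusted 0.673) belonged to Pllp, plasmolipin, a membrane proteolipid of myelin and epithelial cells. Pllp had log2 intensities of 8.01, 8.27 and 8.99 (lowest, median and highest) in ligated fat rats and 7.83, 8.30 and 8.52 in sham fat rats. On chow it had 7.77, 8.12 and 8.60 in ligated rats and 8.86, 9.03 and 9.26 in sham rats. Sham chow rats were highest by median, and the groups overlapped on saturated fat but not on chow. The interaction was 0.99 (interval 0.54 to 1.44), made of a ligation effect of 0.10 on saturated fat and of -0.89 on chow, of which only the chow effect passed (adjusted p = 0.00432). It was 1.13 within the high-background arrays and 0.60 within the low-background arrays.

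Rab3b, a small GTPase of regulated secretion, had the largest estimate of all genes tested, 2.18 ± 0.57 (SE). Its values were 6.81, 7.72 and 8.52 in ligated fat rats and 6.45, 6.47 and 8.21 in sham fat rats. For chow they were 5.91, 6.37 and 8.50 in ligated rats and 6.96, 8.16 and 9.01 in sham rats. The groups overlapped on both diets, and neither ligation effect of Rab3b passed. Metrn, the secreted neurotrophic protein meteorin, had 8.94, 9.42 and 9.77 in ligated fat rats and 8.33, 8.55 and 8.82 in sham fat rats, which did not overlap. With chow its values were 8.62, 8.90 and 9.39 in ligated rats and 8.65, 8.89 and 9.09 in sham rats, which did. Metrn rose by 0.79 on saturated fat (adjusted p = 0.00592), stood at 0.06 on chow, and had an interaction of 0.73 (interval 0.31 to 1.15).

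Adamts5, a secreted protease that cuts versican and aggrecan, had 6.19, 6.38 and 6.98 in ligated fat rats and 5.92, 6.06 and 6.20 in sham fat rats. The chow values of Adamts5 were 5.62, 6.14 and 6.21 in ligated rats and 5.87, 6.52 and 7.00 in sham rats. The groups overlapped on both diets, the probe was dim, and the interaction was 0.75 (interval 0.31 to 1.19). Pltp, which moves phospholipids between lipoproteins, had a ligation effect of 0.49 on saturated fat and -0.04 on chow, with an interaction of 0.52 (interval 0.15 to 0.90). Ppara, the gene of the fatty acid receptor, had 6.95, 7.02 and 8.10 in ligated fat rats and 6.02, 7.05 and 7.18 in sham fat rats. On normal chow Ppara had 6.56, 7.39 and 7.75 in ligated rats and 7.50, 7.77 and 8.61 in sham rats. Medians were close between surgeries on saturated fat, the groups overlapped on both diets, and the interaction was 0.99 (interval 0.28 to 1.69). The remaining 6 above 0 had interactions of 0.54 for Nmi, 0.58 for Vrk2, 0.47 for Umps, 0.37 for Tsc1, 0.62 for Thap11 and 0.58 for Pa2g4.

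Below 0, Stc1, the secreted glycoprotein stanniocalcin-1, had 8.71, 8.96 and 9.62 in ligated fat rats and 8.68, 9.01 and 9.49 in sham fat rats. Under chow it had 9.29, 9.68 and 10.08 in ligated rats and 8.76, 8.81 and 9.14 in sham rats. The groups overlapped on saturated fat and not on chow, where Stc1 rose by 0.81 (adjusted p = 0.0142), and the interaction was -0.83 (interval -1.29 to -0.37). Ltbp4, a latent TGF-beta binding protein of elastic fibres, had 13.37, 13.61 and 13.71 in ligated fat rats and 13.34, 13.52 and 13.63 in sham fat rats. Its chow values were 13.53, 13.63 and 13.91 in ligated rats and 13.11, 13.18 and 13.32 in sham rats. All 6 sham chow rats were below all other 18 animals, a pattern that 1 of the 24 genes and 1 of 10391 genes showed. Ltbp4 rose by 0.48 on chow (adjusted p = 0.00432), stood at 0.05 on saturated fat, and had an interaction of -0.43 (interval -0.68 to -0.19).

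Oas1k, a rat member of the oligoadenylate synthetase family that senses double-stranded RNA, had 6.23, 6.72 and 7.79 in ligated fat rats and 7.45, 7.83 and 8.55 in sham fat rats. With normal chow Oas1k had 6.05, 6.70 and 8.21 in ligated rats and 5.77, 6.46 and 6.67 in sham rats. Sham fat rats were highest by median, and the groups overlapped on both diets. The interaction was -1.50 (interval -2.36 to -0.65), -2.02 within the high-background arrays and -0.36 within the low ones, and its probe may also read close family members. Lsamp, an adhesion protein of the neuronal surface, had 8.82, 9.70 and 10.28 in ligated fat rats and 10.33, 10.77 and 10.97 in sham fat rats, which did not overlap. Chow-fed rats had 9.71, 9.95 and 10.30 when ligated and 9.97, 10.14 and 10.51 when sham-operated, which did. Lsamp fell by 1.07 on saturated fat (adjusted p = 0.00273), stood at -0.20 on chow, and had an interaction of -0.87 (interval -1.38 to -0.36).

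Klf9, a zinc finger factor raised by glucocorticoids, had 12.28, 12.62 and 12.97 in ligated fat rats and 12.85, 12.97 and 13.12 in sham fat rats. On the chow diet it had 12.61, 12.73 and 12.92 in ligated rats and 12.27, 12.58 and 12.78 in sham rats. Both pairs overlapped, the medians ran in opposite directions, and the interaction was -0.51 (interval -0.81 to -0.21). Sorl1, a sorting receptor of the endosome, stood at -0.52 for ligation on saturated fat and 0.37 on chow, with an interaction of -0.90 (interval -1.42 to -0.38). The other 6 below 0 had interactions of -0.49 for Tmem98, -0.60 for Scube1, -0.98 for Coq10b, -0.35 for Ddx24, -0.66 for Chrnb1 and -0.93 for Osgin1. For all 24 genes the sign of the interaction was the same with the background set as a block, within each background set and with each animal left out. Choice by a small p in the same animals favours a stable sign in such fits, so nothing is read from this.

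**Figure D2:**
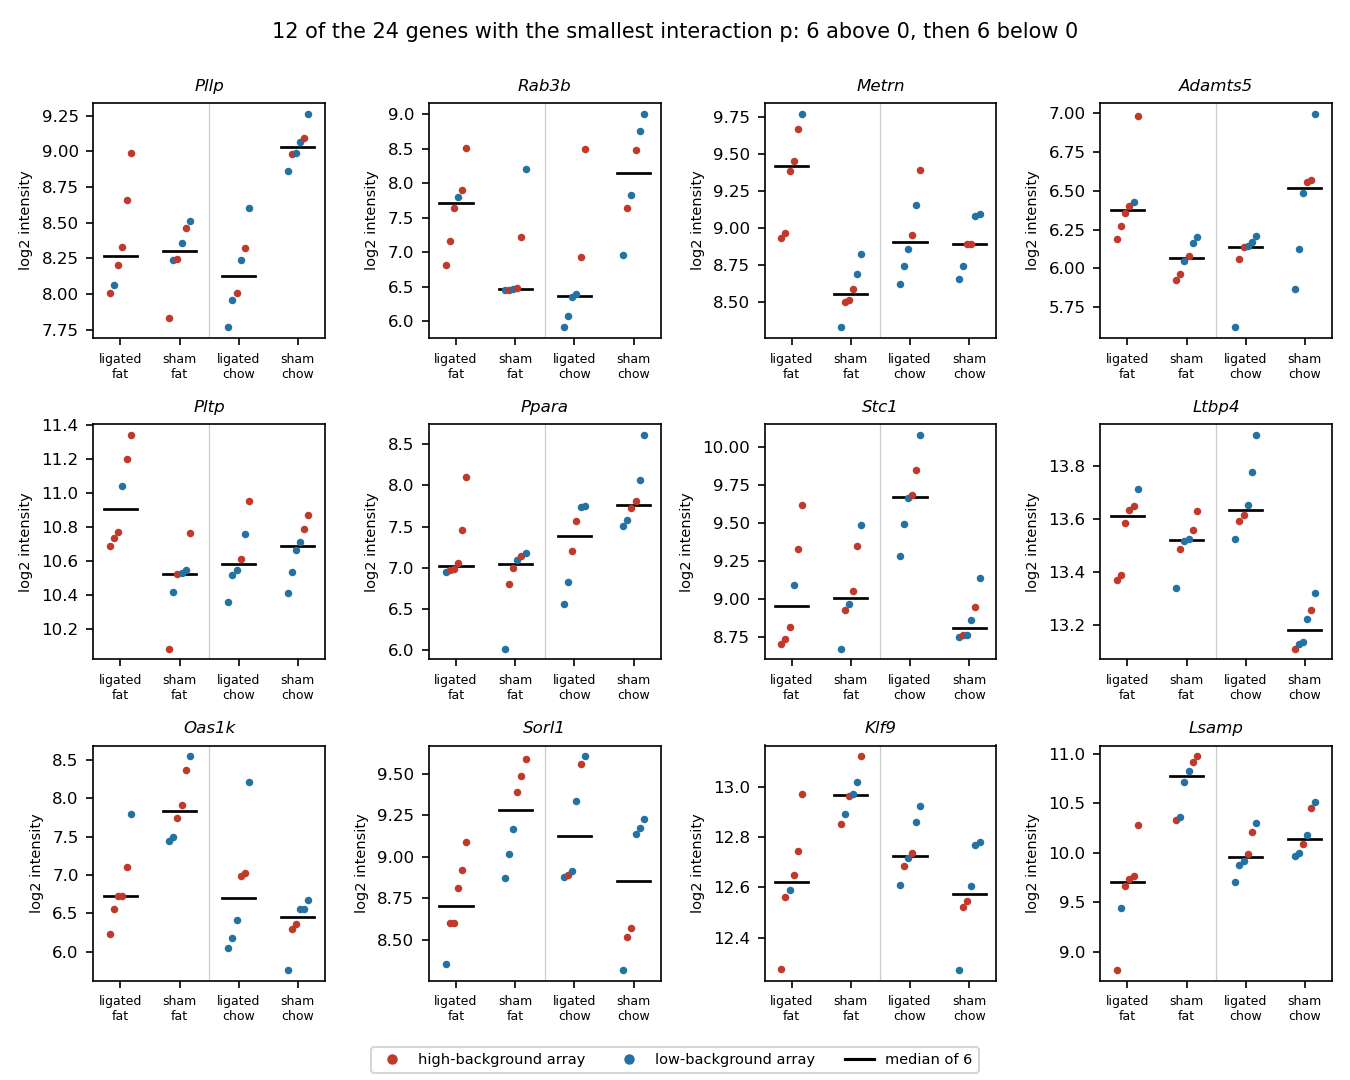
Log2 intensity (vertical axes) of 12 of the 24 genes in each animal, by group from left to right: ligated fat, sham fat, ligated chow and sham chow. Each point is 1 animal, coloured by background set, and the bar is the median of 6. Groups that do not overlap include ligated and sham rats on chow for Pllp, Stc1 and Ltbp4, and on saturated fat for Metrn and Lsamp.

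A panel of 48 genes, mostly of cardiac remodelling and fuel use and chosen with earlier results of these data known, was read whatever its p, and 46 were tested. The interval of the interaction included 0 for 40 of them, against 9828 of all 10391 genes. The ligation effect had the same sign on both diets for 39 of them, against 5864 of all genes. In the panel, 7 genes were called for ligation on both diets, 14 on saturated fat only and 6 on chow only. Choice with earlier results known can favour like signs, so nothing is read from the 39. For the panel the interval lay within 1 log2 unit of 0 for 21 genes and reached beyond it for 25, against 9498 and 893 of all genes. Matrix genes of the panel had wide intervals and lay on either side of 0. Periostin, Postn, a matricellular protein of activated fibroblasts, had 8.38, 9.79 and 12.10 in ligated fat rats and 6.96, 7.44 and 8.58 in sham fat rats. For chow-fed rats Postn had 7.12, 9.69 and 11.05 after ligation and 6.75, 8.71 and 12.32 after sham surgery. A sham chow rat had the highest value of all, the groups overlapped on both diets, and the interaction was 2.02 with an interval from -0.06 to 4.10. Col1a1, the main chain of fibrillar collagen, had an interaction of 0.85 (interval -0.09 to 1.78), Col3a1 one of 0.59 (interval -0.24 to 1.43) and the microfibril gene Mfap4 one of 0.23 (interval -0.15 to 0.61). Mfap4 rose on both diets, by 0.93 and 0.70. Col8a1, a short-chain collagen, lay below 0 at -0.28 (interval -1.15 to 0.58).

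Fuel genes of the panel lay on either side of 0. Decr1, an enzyme of unsaturated fatty acid oxidation, had 12.99, 13.30 and 14.02 in ligated fat rats and 13.80, 14.13 and 14.32 in sham fat rats. Its chow levels were 12.70, 13.04 and 13.74 in ligated rats and 13.17, 13.34 and 13.59 in sham rats. Decr1 fell by 0.68 on saturated fat (adjusted p = 0.0383), the groups overlapped on both diets, and the interaction was -0.43 (interval -0.89 to 0.03). Acot1, an acyl-CoA thioesterase induced by PPAR-alpha, had an interaction of 0.69 (interval -0.15 to 1.53), Pdk4, which shuts off pyruvate oxidation, one of 0.13 (interval -0.55 to 0.81), and Ucp3, an uncoupling protein, one of -0.02 (interval -0.75 to 0.71). Cpt1a, which admits fatty acids to mitochondria, stood at -0.31 (interval -0.71 to 0.09) and the fatty acid transporter Cd36 at 0.24 (interval -0.22 to 0.69). The glucose transporter Slc2a4 stood at -0.28 (interval -0.65 to 0.09). Ppargc1b, a coactivator of mitochondrial genes, stood at 0.58 (interval 0.01 to 1.14), with ligation effects of -0.13 on saturated fat and -0.71 on chow that did not pass.

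**Figure D3:**
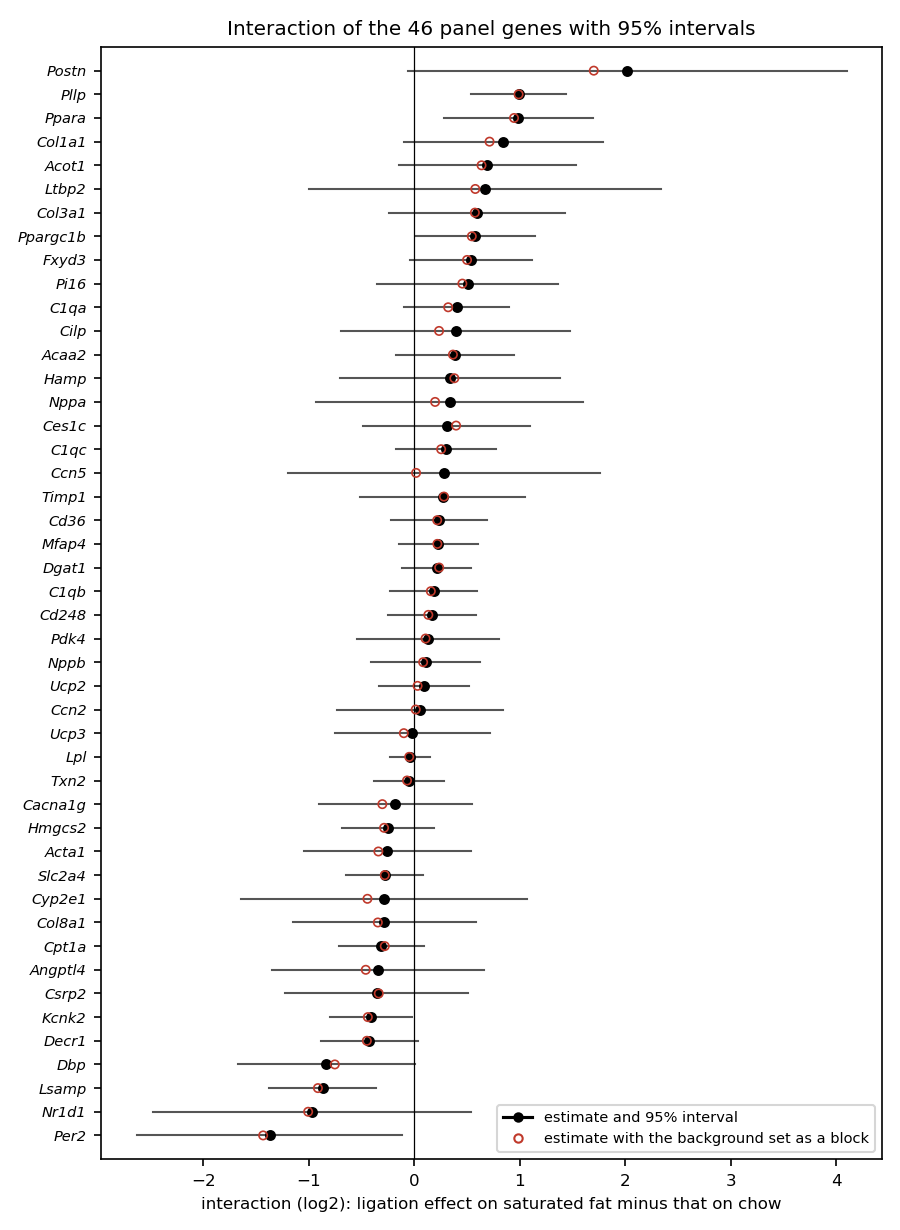
Interaction (horizontal axis, log2) of 46 panel genes, each on its own line, with its 95% interval; open circles give the estimate with the background set as a block. The intervals of 40 genes cross 0, and those of Pllp, Ppara, Ppargc1b, Kcnk2, Lsamp and Per2 do not.

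Gene groups were read from 54 lists, 37 of pathways and 17 of cell types, which hold 1068 distinct genes tested. No list held a gene that passed. Of the 1068 genes, 60 (5.62%) had an unadjusted p under 0.05, against 5.42% of all genes tested, and 529 (49.5%) were above 0, against 47.6% of all genes. The median interaction of a list was within 0.1 of 0 for 39 of the 54 lists.

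**Figure D4:**
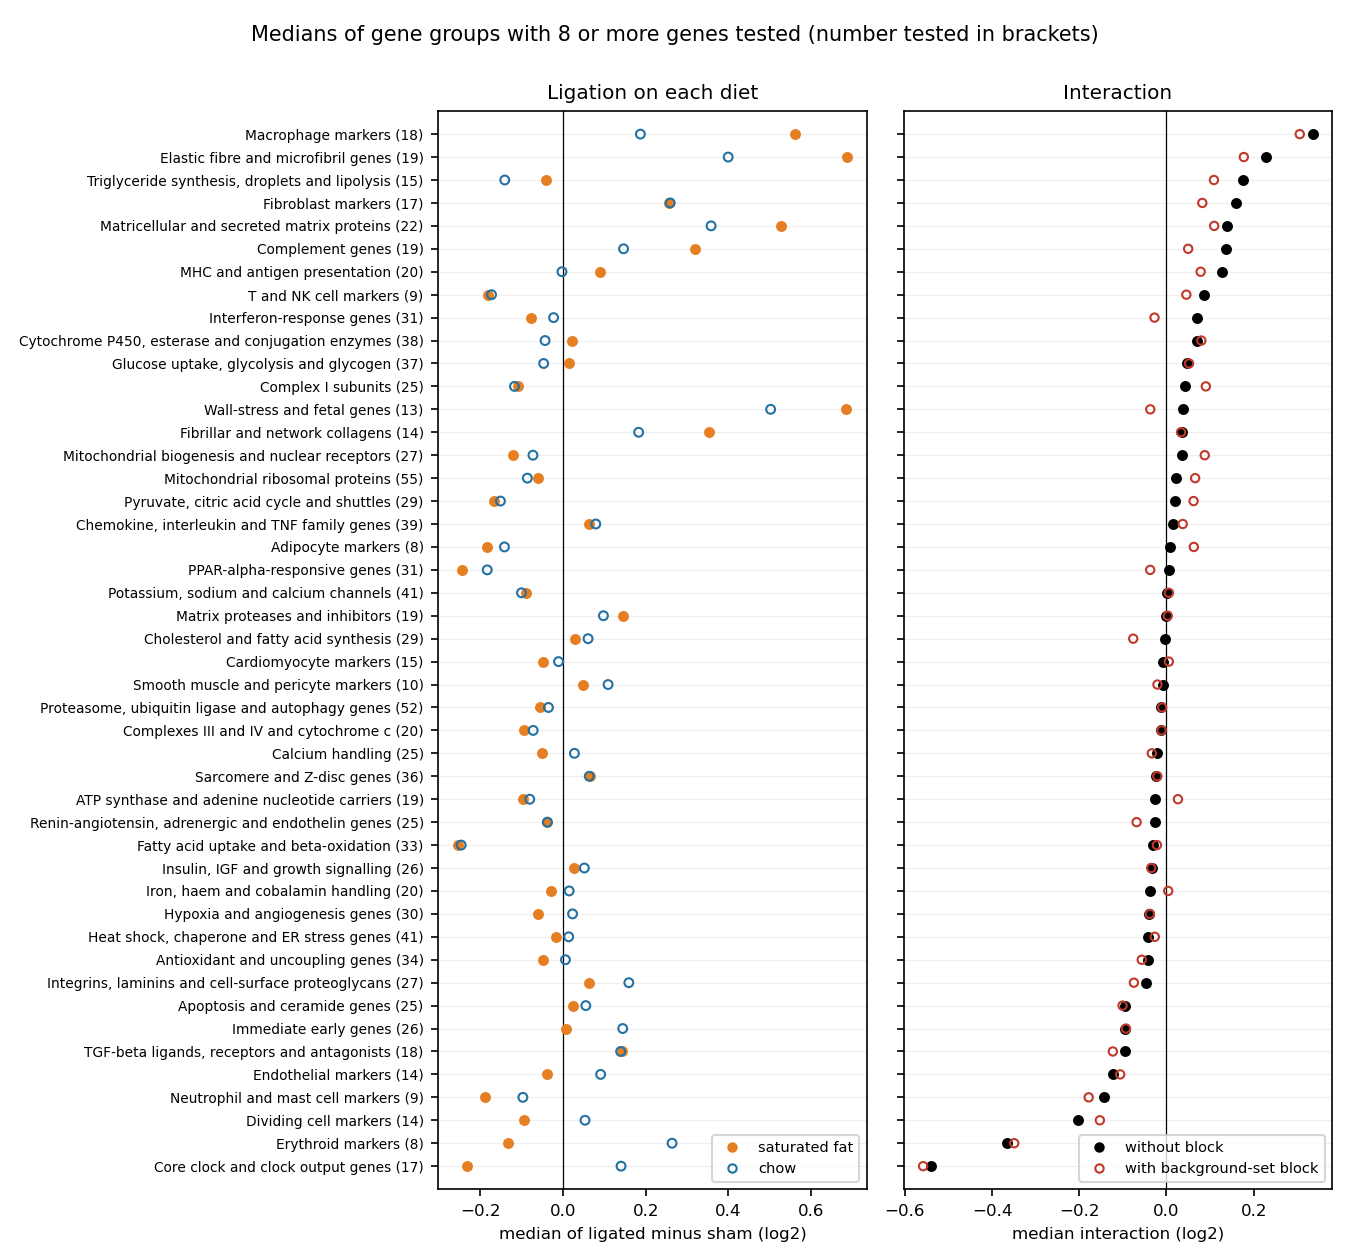
Medians of the lists with 8 or more genes tested, sorted by median interaction. The left panel gives the median of ligated minus sham on saturated fat (filled) and on chow (open), and the right panel the median interaction without (filled) and with (open) the background set as a block, all in log2; macrophage markers lie highest at 0.34 and clock genes lowest at -0.54.

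Clock genes had the lowest median. Of 17 tested, 5 were above 0 and 12 below, and the median interaction was -0.54. The list medians for ligation were -0.23 on saturated fat and 0.14 on chow. Each median is taken over the genes separately, so the first need not equal the difference of the other 2. With the block the median was -0.56, within the high-background arrays -0.40, within the low ones -0.28 and with no detection filter -0.14. An unadjusted p under 0.05 was found for 2 above 0 and 4 below 0, 6 of 17 genes against 5.42% of all genes. Clock genes can move together within an animal, so the 6 are not separate observations. Tef, a clock-driven transcription factor, had 6.11, 6.79 and 7.75 in ligated fat rats and 6.25, 7.89 and 8.12 in sham fat rats. On chow Tef had 6.64, 7.74 and 8.13 in ligated rats and 5.96, 6.54 and 8.27 in sham rats. Medians were lower after ligation on saturated fat and higher after ligation on chow, and each group ranged over more than 1 log2 unit. The Tef interaction was -1.52 (interval -2.61 to -0.43).

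The repressor gene Per2 had 10.25, 11.21 and 11.70 in ligated fat rats and 10.04, 11.98 and 12.41 in sham fat rats. Chow-fed animals had Per2 at 9.53, 11.51 and 12.19 after ligation and 9.53, 10.20 and 12.03 after sham surgery. Groups overlapped throughout, and the interaction was -1.37 (interval -2.63 to -0.11). Coq10b, a coenzyme Q binding protein, stood at -0.98 (interval -1.55 to -0.40), Dbp at -0.84 (interval -1.68 to 0.00) and Nr1d1, the Rev-erb-alpha gene, at -0.97 (interval -2.48 to 0.54). Chosen after their values were seen, Per1 stood at -0.75 (interval -1.40 to -0.10), and 2 genes that peak at the opposite phase stood above 0, Bmal1 at 0.89 (interval 0.11 to 1.67) and Nfil3, a repressor of the D-box, at 0.82 (interval 0.06 to 1.57). Bmal1 was dim, detected in 3 ligated fat, 1 sham fat, 2 ligated chow and 4 sham chow rats.

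A clock index, the mean of Dbp, Per2, Per3, Tef and Nr1d1 minus Bmal1, had -0.06, 1.57 and 2.67 (lowest, median and highest) in ligated fat rats and 0.86, 2.62 and 2.91 in sham fat rats. The index had 0.79, 2.65 and 3.13 in ligated chow rats and 0.29, 1.01 and 3.09 in sham chow rats. All 4 groups overlapped, and low and high animals occurred in each. With the index as a covariate, which removes the list's shared movement by construction, the median of the clock list was -0.01, 0 genes passed and 423 genes had an unadjusted p under 0.05. The sources used here give no hour of sampling per animal beyond that window of the dark phase, and its part in the result was not tested.

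Promoters of 4 of these genes are shown because members of the list with these interactions are known targets of clock factors that bind defined elements. Each runs from 250 bases before to 50 bases after the RefSeq start on GRCr8, read 5′ to 3′ on the strand of the gene, with matches to any of 3 motifs in capitals. The motifs, searched on both strands, were the E-box CACGTG of BMAL1 and CLOCK, the D-box TTATGTAA of DBP and TEF, and TAGGTCA, bound by ROR and Rev-erb receptors. They occur in 6.42%, 0.893% and 2.63% of 33469 rat promoter windows. Per2 lies at chr9:99496944-99497243 on the minus strand, Tef at chr7:115206577-115206876, Coq10b at chr9:64047918-64048217 and Bmal1 at chr1:176766078-176766377, the last 3 on the plus strand.
Per2: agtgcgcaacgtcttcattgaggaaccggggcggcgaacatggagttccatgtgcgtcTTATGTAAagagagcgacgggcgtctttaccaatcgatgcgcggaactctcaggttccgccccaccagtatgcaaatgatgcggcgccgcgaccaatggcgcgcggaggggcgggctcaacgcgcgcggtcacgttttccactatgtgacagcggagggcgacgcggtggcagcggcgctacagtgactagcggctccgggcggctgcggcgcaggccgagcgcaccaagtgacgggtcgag
Tef: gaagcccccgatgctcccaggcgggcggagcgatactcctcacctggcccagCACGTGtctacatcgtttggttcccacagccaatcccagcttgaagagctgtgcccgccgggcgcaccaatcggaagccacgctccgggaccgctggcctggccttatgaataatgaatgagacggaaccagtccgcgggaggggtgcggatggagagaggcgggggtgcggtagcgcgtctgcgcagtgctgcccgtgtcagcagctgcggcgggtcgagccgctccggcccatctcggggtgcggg
Coq10b: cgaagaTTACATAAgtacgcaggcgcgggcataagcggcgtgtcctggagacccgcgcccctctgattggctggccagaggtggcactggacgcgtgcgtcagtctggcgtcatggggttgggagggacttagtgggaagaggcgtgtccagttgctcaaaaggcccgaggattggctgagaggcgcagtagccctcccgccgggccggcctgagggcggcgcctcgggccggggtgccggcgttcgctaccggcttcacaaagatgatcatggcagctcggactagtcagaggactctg
Bmal1: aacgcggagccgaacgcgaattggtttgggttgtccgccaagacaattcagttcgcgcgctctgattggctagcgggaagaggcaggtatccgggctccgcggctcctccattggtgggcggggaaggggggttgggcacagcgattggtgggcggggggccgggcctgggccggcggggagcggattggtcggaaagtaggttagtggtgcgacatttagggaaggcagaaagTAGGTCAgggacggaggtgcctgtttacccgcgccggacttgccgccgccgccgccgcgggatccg
Per2 and Coq10b each hold a D-box, on opposite strands, Tef holds an E-box and Bmal1 holds a TAGGTCA. Among 15 windows of 14 clock-list genes, 5 held an E-box, 2 a D-box and 1 a TAGGTCA. All 4 windows shown hold a match, while some other windows of the list hold none. A match describes the letters and is no evidence of binding.

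**Figure D5:**
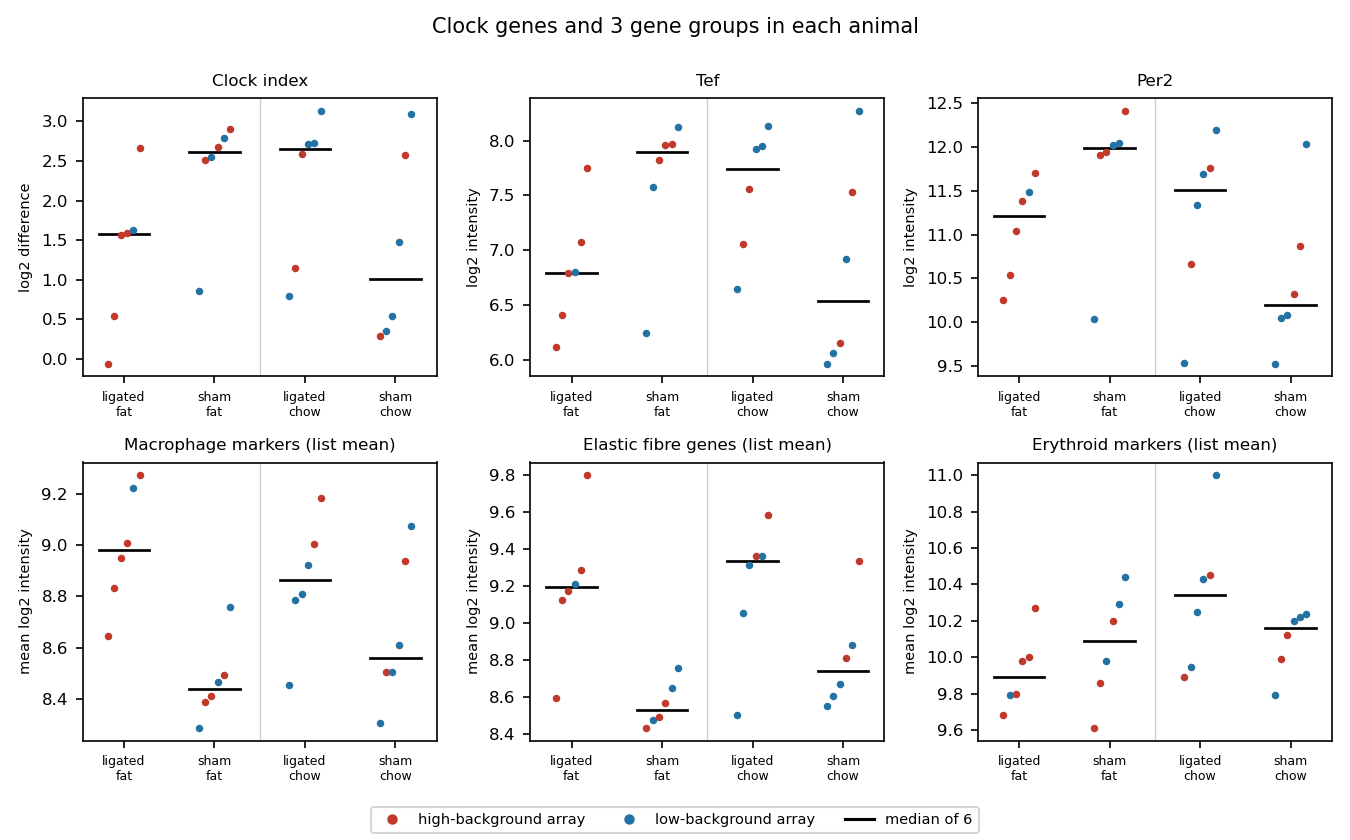
Clock index, Tef and Per2 (upper row) and the list means of macrophage, elastic fibre and erythroid genes (lower row) in each animal, in log2 units, by group from left to right: ligated fat, sham fat, ligated chow and sham chow. Points are animals coloured by background set and bars are medians of 6; clock values overlap between all 4 groups, and the median of the macrophage means is lowest in sham fat rats.

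Macrophage markers had the highest median of lists with 8 or more genes tested. Of 18 tested, 16 were above 0, and the median interaction was 0.34, with list medians of 0.56 for ligation on saturated fat and 0.19 on chow. The mean of the list was 8.64, 8.98 and 9.27 (lowest, median and highest) in ligated fat rats and 8.29, 8.44 and 8.76 in sham fat rats. The same mean was 8.45, 8.87 and 9.18 in ligated chow rats and 8.30, 8.56 and 9.07 in sham chow rats. Groups overlapped on both diets, and the 2 ligated medians were closer than the distance between either and its sham median. On saturated fat 3 markers passed for ligation, the complement C1q chains C1qa, C1qb and C1qc, which rose by 0.86, 0.67 and 0.70, and on chow 0 passed, against 0.885% and 0.472% of all genes. C1qa had an interaction of 0.40 (interval -0.10 to 0.90), C1qb one of 0.18 (interval -0.23 to 0.59) and C1qc one of 0.30 (interval -0.18 to 0.78).

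Of 18 macrophage markers, 2 had an unadjusted p under 0.05, Ctss and Mrc1, against 5.42% of all genes. Ctss, a lysosomal protease that trims antigen chains, had 10.94, 11.41 and 11.56 in ligated fat rats and 10.21, 10.65 and 10.91 in sham fat rats. On chow Ctss had 10.38, 11.09 and 11.63 in ligated rats and 10.59, 10.70 and 11.34 in sham rats. The groups were apart on saturated fat and overlapped on chow, and the interaction was 0.62 (interval 0.08 to 1.16). Mrc1, the mannose receptor, stood at 0.58 (interval 0.01 to 1.15). The list median differed between background sets, at 0.06 within the high arrays and 0.65 within the low arrays, where the ligated fat group has 1 animal, and it was 0.31 with the block and 0.18 with the clock index as a covariate. The part of the background sets in the result was not tested beyond these fits.

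Other immune lists lay nearer 0. Genes of MHC and antigen presentation had a median of 0.13 with 12 of 20 above 0. That median was -0.05 within the high-background arrays, 0.30 within the low ones and 0.03 without sham fat animal 34. RT1-Db1, a class II beta chain, stood at 0.80 (interval 0.21 to 1.39). RT1 genes have close copies that a probe may also read. Complement genes had a median of 0.14 with 14 of 19 above 0, which was 0.05 with the block and 0.06 without ligated fat animal 28. Interferon-response genes had a median of 0.07 with 16 of 31 above 0, which was -0.02 without sham chow animal 7, and chemokine, interleukin and TNF family genes one of 0.01 with 21 of 39.

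Matrix lists had ligation medians above 0 on both diets, and their interaction medians depended on single animals. Elastic fibre and microfibril genes had list medians of 0.69 on saturated fat and 0.40 on chow, with 3 genes called on each against 0.885% and 0.472% of all genes, and a median interaction of 0.23 with 14 of 19 above 0. That median was 0.10 without ligated fat animal 28, 0.10 without ligated chow animal 21, 0.12 without sham chow animal 15, 0.07 within the high-background arrays and -0.07 with the clock index as a covariate. Emilin1, a glycoprotein at the fibre surface, stood at 0.68 (interval 0.07 to 1.29), 0.83 within the low-background arrays and within 0.01 of 0 within the high ones. Matricellular proteins had medians of 0.53 and 0.36 for ligation and 0.14 for the interaction, and collagens 0.35 and 0.18 for ligation and 0.04 for the interaction. The matricellular median was -0.03 without ligated chow animal 21, -0.02 without ligated fat animal 28 and -0.12 with the clock index as a covariate. For ligation 5 of 22 matricellular genes passed on saturated fat and 0 on chow, against 0.885% and 0.472% of all genes, and 0 of the 22 had an unadjusted interaction p under 0.05. Matrix proteases and their inhibitors had a median close to 0, with Adamts5 above 0 and Adamts1, which cuts the same proteoglycans, below it at -0.69 (interval -1.13 to -0.26). Adamts1 rose by 0.78 on chow (adjusted p = 0.0117) and stood at 0.09 on saturated fat. Fibroblast markers had a median interaction of 0.16, with 12 of 17 above 0 and ligation medians of 0.26 on each diet, and 0.08 with the block. Wall-stress and fetal genes had 5 of 13 members called on each diet, against 0.885% of all genes on saturated fat and 0.472% on chow. Their ligation medians were 0.69 and 0.50, and their median interaction of 0.04, with 7 of 13 above 0, was -0.04 with the block.

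Metabolic genes lay near the background of all genes. The 13 lists of fuel and mitochondrial genes hold 336 distinct genes, of which 0 passed, 15 (4.46%) had an unadjusted p under 0.05 against 5.42% of all genes, 173 were above 0 and 163 below. Their median interaction was 0.01, and the interval lay within 1 log2 unit of 0 for 306 of them (91.1%), against 91.4% of all genes. Ketone body genes had a median of -0.14 with 5 of 7 below 0, which was -0.02 with the clock index as a covariate. Fatty acid uptake and beta-oxidation genes had ligation medians of -0.25 on both diets and a median interaction of -0.03, with 16 of 33 above 0. PPAR-alpha-responsive genes had ligation medians of -0.25 and -0.18 and a median interaction of 0.01, with 16 of 31 above 0. Complex I subunits stood at 0.04, complexes III and IV at -0.01, ATP synthase and carriers at -0.03, and mitochondrial ribosomal proteins at 0.02. Raw signal came close to the top of the scale for 11 of 20 genes of complexes III and IV. It did so for 10 of 19 genes of ATP synthase and carriers, which limits what these 2 medians can show. Glucose uptake and glycolysis genes had a median of 0.05, and 5 of 37 members had an unadjusted p under 0.05, against 5.42% of all genes. Pkm, pyruvate kinase of muscle, stood at 0.58 (interval 0.10 to 1.06), and Pygb, a glycogen phosphorylase, at -0.32 (interval -0.56 to -0.09). Pygb fell by 0.37 on saturated fat (adjusted p = 0.0257). Triglyceride genes had a median of 0.18 with 10 of 15 above 0, which was 0.11 with the block and under 0.01 in size within either background set. Dgat2, which makes triglyceride, stood at -0.82 (interval -1.62 to -0.01). Dgat1, the other enzyme of that step, fell by 0.53 on chow (adjusted p = 0.0264) and had an interaction of 0.21 (interval -0.12 to 0.54). In the cholesterol list, with a median close to 0, the late pathway enzymes Hsd17b7 and Sc5d stood at -0.71 (interval -1.17 to -0.26) and -0.91 (interval -1.66 to -0.16).

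Channel genes had a median of 0.00 over 41 members, and 5 of the 41 had an unadjusted p under 0.05, against 5.42% of all genes. All 5 were below 0, a split that for all genes turned with the scaling between arrays. Kcnk2, a stretch-gated potassium channel, fell by 0.80 on saturated fat, stood at -0.40 on chow, and had an interaction of -0.41 (interval -0.80 to -0.02). Cacnb2, a calcium channel subunit, stood at -0.46 (interval -0.86 to -0.07). Calcium handling genes had a median of -0.02 over 25 members, and sarcomere and Z-disc genes -0.02 over 36, of which 14 came near the top of the scale.

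Immediate early genes had a median of -0.09 with 17 of 26 below 0. An unadjusted p under 0.05 was found for 4 of the 26, against 5.42% of all genes. All 4 were below 0, against 3.32% of all genes, a share that turned with the scaling between arrays. That list median was 0.02 under median scaling, 0.06 within the high-background arrays and -0.02 without ligated chow animal 23. Atf3, a stress-induced factor, stood at -0.84 (interval -1.44 to -0.24), Jun at -0.55 (interval -0.92 to -0.18) and the orphan receptor Nr4a1 at -0.54 (interval -0.92 to -0.16). Each had a ligation effect below 0 on saturated fat and above 0 on chow, at -0.10 and 0.74 for Atf3, and none of these passed. Maoa, which breaks down catecholamines, rose by 1.50 on saturated fat (adjusted p = 0.00261) and stood at 0.77 on chow. It had 12.33, 12.48 and 12.85 in ligated fat rats and 10.45, 11.15 and 11.53 in sham fat rats. On chow Maoa had 11.10, 11.85 and 12.13 in ligated rats and 9.88, 11.07 and 11.84 in sham rats. All 6 ligated fat rats were above the other 18 animals, a pattern that 2 of 10391 genes showed. The interaction of Maoa was 0.73 (interval 0.04 to 1.43).

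Lists of other cell types differed in how far they lay from 0. All 8 erythroid markers tested were below 0, with a median interaction of -0.37. The mean of the erythroid list was 9.68, 9.89 and 10.27 in ligated fat rats and 9.61, 10.09 and 10.44 in sham fat rats. It was 9.89, 10.34 and 11.00 in ligated chow rats and 9.79, 10.16 and 10.24 in sham chow rats. The groups overlapped on both diets, and globin probes may read several copies. The median interaction was -0.64 within the low-background arrays, with 1 ligated fat animal, and close to 0 within the high ones. Markers of dividing cells had a median of -0.20 with 11 of 14 below 0, which was -0.11 under median scaling and under 0.01 in size within the low-background arrays. Cdk1, the mitotic kinase, stood at -0.84 (interval -1.60 to -0.08). Endothelial markers had a median of -0.12 with 10 of 14 below 0, which was -0.01 under median scaling. Neutrophil and mast cell markers stood at -0.14 with 7 of 9 below 0, and at -0.05 with the clock index as a covariate. Cardiomyocyte markers stood at -0.01 over 15, 12 of them near the top of the scale. Smooth muscle and pericyte markers stood at -0.01 over 10 and adipocyte markers at 0.01 over 8. The 3 atrial markers tested had a median of 0.34, which is the value of Nppa and was -0.07 without ligated chow animal 21.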

How the data were processed

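Left ventricle RNA of 24 rats was measured on Illumina bead arrays with 50-base probes, 1 array per animal. The authors deposited, per the file headers, a signal intensity and a detection p-value for each probe, and separate normalized intensities; BeadStudio 3 is named in the submitters' processing notes, and the sources used here do not say how the authors normalized. From the deposited intensity, neqc of limma 3.58.1 (R 4.3.3, offset 16) gave background-corrected, quantile-normalized log2 values. Of 22517 probes, 10540 were kept because 6 or more arrays had a detection p under 0.05 for them, and the brightest probe stood for each of 10391 genes. Group means were fitted with lmFit and eBayes (20 residual degrees of freedom), and p-values were adjusted by Benjamini-Hochberg over all genes. The p-values set each contrast against the spread between these animals, and the scripts were tested on simulated data. A clock index was used as a covariate in some alternatives.

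The members, gene lists and tests were chosen with earlier results of these data known. The genes named are the 12 with the smallest interaction p above 0 and the 12 below 0 with official symbols, the 2 members of each list with the smallest p, and a panel of 48 genes, 161 genes in all; others are introduced as chosen after their values were seen. The 36 alternatives changed the background sets, correction, scaling, filter, variance model or clock covariate, or left out 1 animal. Promoter sequences are those of RefSeq on GRCr8. The hour of sampling and infarct size of each animal were not used here. Some single-gene results are not reported here.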

Additional observations from a re-analysis of the deposited data

Results flagged for a closer look

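Within groups of 6, an animal far from the rest on Dixon's criterion was found in 12 of 156 groups tested, over 32 genes and 7 lists, and chance gives about 1 in 20 groups. All values are log2 intensities, and 6 of these animals were in the high-background and 6 in the low-background set. Among ligated fat rats, animal 5 was highest for Adamts5 at 6.98, animal 28 was highest for Col1a1 at 11.55, and animal 18 had the highest mean of the clock list at 9.43. Among sham fat rats, animal 12 was lowest for both Per2 at 10.04 and Tef at 6.25, animal 20 was lowest for Ppara at 6.02, and animal 35 was lowest for Hbb-b1 at 12.02. Among ligated chow rats, animal 21 was lowest for both Adamts5 at 5.62 and Nppb at 13.73, animal 24 was highest for RT1-Db1 at 9.71, and animal 38 was highest for Acot1 at 7.72. Among sham chow rats, animal 7 was highest for Acot1 at 8.82.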

How the results depend on the processing

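The count of genes called for the interaction was 0 under all 36 alternatives, with a smallest adjusted p in limma between 0.203 and 1. The count at an unadjusted p under 0.05, 563 genes, was 228 within the high-background arrays, 209 under median scaling and 1090 with no detection filter, and 403 to 752 with 1 animal left out. Ligation on saturated fat, with 92 genes called, gave 57 with the background set as a block, 9 in the high-background set alone, 4 in the low-background set alone, where the spread of the lone ligated fat animal is taken from the other groups, 10 under median scaling, 58 with no detection filter, 307 with array weights, 46 with the clock index as a covariate and 19 with the index and the block. Leaving out 1 animal gave 42 to 178 genes, the lowest without ligated fat animal 28 and the highest without ligated fat animal 18. Ligation on chow, with 49 genes called, gave 3 in the high-background set alone and 0 in the low-background set alone, 0 under median scaling, 120 with array weights and 83 with the index and the block. Leaving out 1 animal gave 24 to 103 genes, the lowest without ligated chow animal 4 and the highest without ligated chow animal 21. Named genes with an unadjusted p under 0.05 numbered 69, and choice by p favours a stable sign in refits of the same animals. Of these genes, 1 had a sign change in any alternative, Hbb-b1, at 0.14 within the high-background arrays. The cause was not tested. No paired analysis was possible because the animals' numbers differ between groups.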
